A study of Mus musculus with 10 samples.

Results

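NOTCH receptors, their DNA-binding partner and direct target genes were followed in a mouse model of T-ALL (acute lymphoblastic leukemia of the T cell lineage). The set was drawn up by name and held 10 of the 18193 genes on the array. They were the receptors Notch1, Notch2 and Notch3, the DNA-binding partner Rbpj, and the targets Hes1, Hes5, Heyl, Dtx1, Nrarp and Ptcra. Every probe set that the platform annotation gave to exactly 1 of these symbols was read, which was 20 of the 34945 probe sets with 1 symbol and of the 45101 on the array. All 20 lay above the limit used for dim genes, and all 10 genes passed it.

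ICN1, an intracellular and constitutively active piece of NOTCH1, had been used to induce the leukemias, and the labels give no promoter or vector for it. All 10 samples carried a ROSCreERT2 transgene, which encodes a Cre recombinase that tamoxifen activates, and 2 floxed alleles of CnB1. CnB1 (current symbol Ppp3r1) encodes the regulatory subunit of calcineurin, a calcium-dependent phosphatase. Leukemic secondary recipients received tamoxifen (TAM, 5 arrays), by which CnB1 was deleted, or its corn oil carrier alone (OIL, 5 arrays). Leukemic cells made up over 50% of the marrow and were sorted by GFP or a similar marker, and 200 ng of total RNA was labelled. The ages of the mice, the drug dose and the time of collection are not given in the labels. Each group held 1 sample under each of 5 labels: 204, 206 and F3, and F3.1 and F3.2, which are written here without a trailing number that was not the same in OIL and TAM. The labels do not say what these names stand for or whether each array came from a separate mouse. P-values therefore measure the spread between these samples, which may be technical in part. All samples were driven by ICN1 and both groups carried the same transgene, so no array shows these genes without activated NOTCH1, and no array shows tamoxifen without the floxed alleles.

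NOTCH proteins are single-pass receptors that are cut after binding a ligand on a neighbouring cell. The released intracellular domain enters the nucleus, joins RBPJ and MAML coactivators on DNA and switches on genes that RBPJ otherwise helps to repress. In the thymus this signal commits progenitors to the T cell lineage, and activating NOTCH1 lesions are frequent in T-ALL. The targets include the HES and HEY repressors, the feedback regulators Dtx1 and Nrarp, and Ptcra, which encodes the pre-T cell receptor alpha chain.

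RBPJ recognises the core letters TGGGAA. RefSeq promoters of assembly GRCm38.p6, from 250 bases before to 50 bases after the start site, were held for 8 of the 10 genes (9 promoters). None was held for Hes1 or Heyl, so these 2 targets were not searched. The core was searched on both strands and stood in 25.6% of 32851 promoters of this length, and in 3.79% it stood at least 2 times. The longer form GTGGGAA, which contains the core, stood in 6.38%, and at least 2 times in 0.256%. The promoters of Hes5 (chr4:154960673-154960972, plus strand) and Ptcra (chr17:46763663-46763962, minus strand) are shown as the promoters of target genes in the set that held the core. The promoter of Nrarp (chr2:25180508-25180807, plus strand) is shown because Nrarp was the gene of the set called between TAM and OIL with the labels paired. Each runs 5′ to 3′ along the gene, and capitals mark the core, as TGGGAA or, on the other strand, TTCCCA.
Hes5: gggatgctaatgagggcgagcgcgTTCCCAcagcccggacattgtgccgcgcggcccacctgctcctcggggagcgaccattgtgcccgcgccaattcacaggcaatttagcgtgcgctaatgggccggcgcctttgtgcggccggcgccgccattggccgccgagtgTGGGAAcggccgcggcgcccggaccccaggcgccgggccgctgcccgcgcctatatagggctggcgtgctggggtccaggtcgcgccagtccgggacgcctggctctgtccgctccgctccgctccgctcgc
Ptcra: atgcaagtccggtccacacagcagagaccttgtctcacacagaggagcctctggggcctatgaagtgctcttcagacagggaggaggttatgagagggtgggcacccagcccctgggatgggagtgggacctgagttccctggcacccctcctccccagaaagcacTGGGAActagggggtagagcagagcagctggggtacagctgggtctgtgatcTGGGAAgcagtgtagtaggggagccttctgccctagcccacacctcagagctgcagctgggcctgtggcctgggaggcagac
Nrarp: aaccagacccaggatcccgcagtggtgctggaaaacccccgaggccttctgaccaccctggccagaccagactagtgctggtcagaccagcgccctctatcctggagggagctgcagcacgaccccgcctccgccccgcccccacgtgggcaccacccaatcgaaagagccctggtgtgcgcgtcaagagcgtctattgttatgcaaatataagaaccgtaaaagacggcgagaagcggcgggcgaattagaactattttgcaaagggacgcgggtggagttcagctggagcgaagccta
Counted from its leftmost letter as printed, the Hes5 core lay 82 bases before the start site on the gene's strand. On the opposite strand it lay 226 bases before it, and both matches were also GTGGGAA. In Ptcra the core began 84 and 32 bases before the start site, both on the gene's strand. Both Rbpj promoters held it as well. The core was not among the letters of the windows of Notch1, Notch2, Notch3, Dtx1 and Nrarp. A match describes letters only, and binding was not measured here.

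The RMA log2 values spanned 1.74 to 14.02, with array medians of 5.07 to 5.13. A log2 value of 1 probe set is not comparable with that of another, so levels are compared only within a probe set. The deletion was checked on Ppp3r1. Its probe set 1421786_at read 5.32 ± 0.58 in OIL and 3.26 ± 0.21 in TAM (SD, n = 5, two-sided exact permutation p = 0.00794, the smallest possible). Its brighter probe set 1433591_at read 9.80 ± 0.09 and 9.67 ± 0.04 (SD, n = 5, exact permutation p = 0.0238), a difference of -0.12. All 11 T cell markers on the array were above the dim limit in this labelled T cell leukemia, with a list mean of 9.86 to 10.43 in OIL and 9.97 to 10.31 in TAM. Myeloid markers (10 genes) averaged 4.88 to 6.37 in OIL and 5.39 to 6.86 in TAM, with Itgam and Mpo below the limit. Erythroid markers (6 genes) averaged 4.50 to 4.82 and 4.54 to 4.73, with Hba-a1 and Car1 below it. Endothelial and stromal markers (9 genes) averaged 4.55 to 5.13 and 4.68 to 5.14, with Cdh5, Emcn, Col1a1, Col3a1 and Cxcl12 below it and Pdgfrb between 6.77 and 11.73. B cell markers (6 genes) averaged 4.33 to 4.47 and 4.23 to 4.32, with Cd79a, Cd79b, Ms4a1 and Ebf1 below it (exact permutation p for the list mean = 0.00794). The 2 B cell markers above the limit, Pax5 and Vpreb1, were not called (limma adjusted p = 0.68 and 0.804). For the other list means the exact permutation p was 0.563 (T cell), 0.405 (myeloid), 0.302 (erythroid) and 0.532 (endothelial and stromal). In such sorted bulk samples, fewer cells of a type and less RNA per cell cannot be told apart.

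The first question was whether the set differed between TAM and OIL, that is, with and without deletion of CnB1. No gene of the 10 was called by limma without a block (adjusted p under 0.05, Benjamini-Hochberg over 12735 genes), where 60 genes (0.471%) were called in all. Pairing the arrays by their shared label called 431 genes (3.38%), and Nrarp was the 1 gene of the set among them. At an unadjusted p under 0.05 the set gave 3 genes, Hes1, Nrarp and Rbpj, against 13% of all genes, and with the labels paired it gave these and Notch1, against 22.4%. Of the set, 8 of 10 genes had a higher mean in TAM and the median difference was 0.14, beside 41% of genes and a median of -0.03 over all genes tested. In 5 of 5 labels, 4 genes differed the same way: Notch1, Hes1 and Nrarp were higher in TAM and Rbpj lower. Such agreement was seen for 21.9% of all genes. No gene of the set had groups that did not overlap, against 3.27% of all genes.

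**Figure D1:**
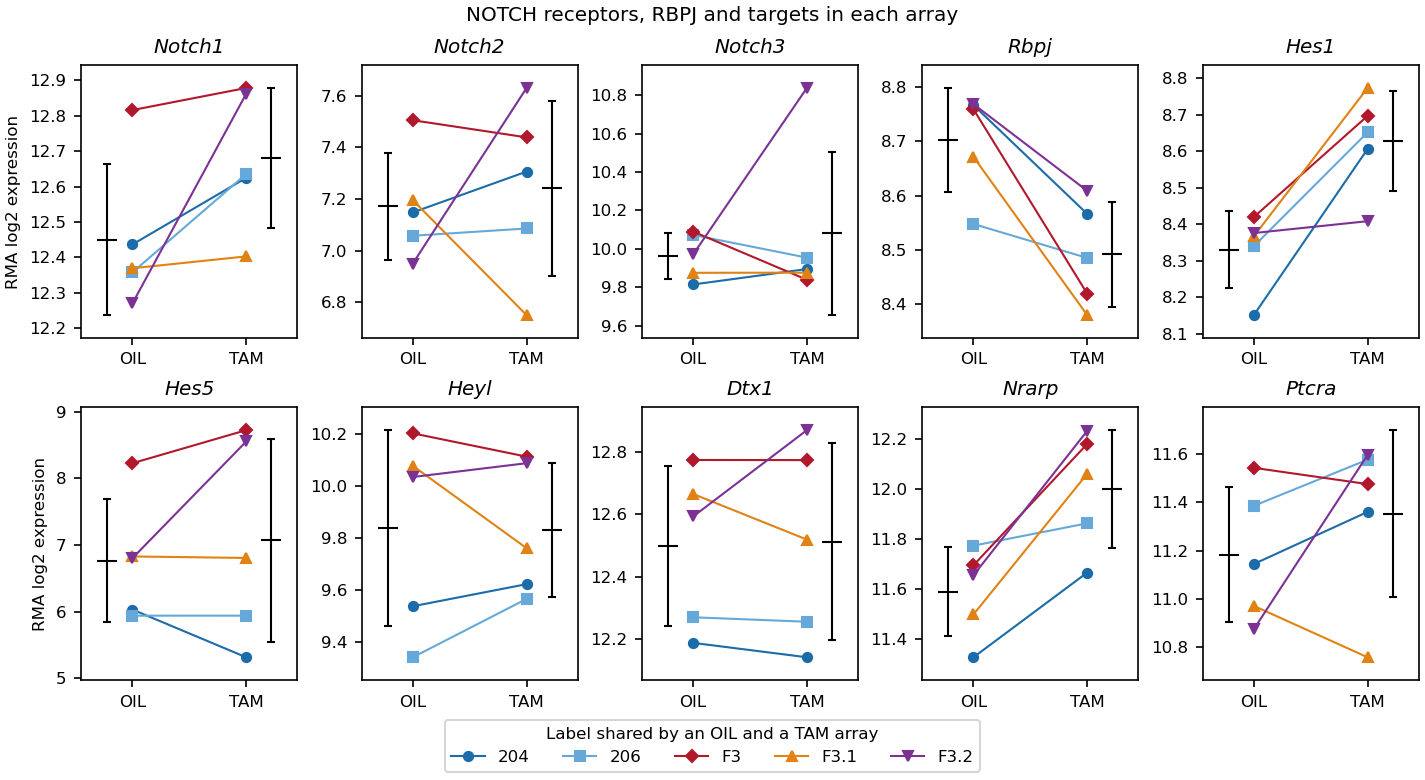
RMA log2 expression (vertical axis) of the 10 genes in OIL and TAM, each gene by its brightest probe set, with its own vertical scale. Lines join the OIL and TAM array of a label, and bars give the mean and SD of 5 arrays. Nrarp and Hes1 are higher in TAM for all 5 labels and Rbpj is lower, while the lines of Hes5, Heyl and Dtx1 are spread mainly by label.

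Nrarp encodes a small ankyrin-repeat protein that is induced by NOTCH and restrains it. Its brighter probe set, 1417985_at, read 11.33, 11.77, 11.70, 11.50 and 11.65 in the OIL arrays 204, 206, F3, F3.1 and F3.2. It read 11.67, 11.86, 12.18, 12.06 and 12.23 in the TAM arrays in the same order. TAM was higher in every label, by as little as 0.09 in 206 and as much as 0.58 in F3.2, but the groups overlapped because OIL 206 and OIL F3 lay above TAM 204. The mean level was 11.59 ± 0.18 for OIL and 12.00 ± 0.24 for TAM (SD, n = 5). The difference was 0.41 (SE 0.13, 95% interval 0.13 to 0.69), a 1.33-fold higher level, with a limma adjusted p of 0.211. With the labels paired its SE was 0.09, the interval was 0.21 to 0.61 and the limma adjusted p was 0.0493, just past the threshold. That paired call held without label 206 (limma adjusted p = 0.0402) and was lost without 204 (0.108), F3 (0.147), F3.1 (0.164) or F3.2 (0.0833).

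The second Nrarp probe set, 1417986_at, read 9.04, 9.51, 9.52, 9.07 and 9.21 in OIL and 9.51, 9.72, 10.27, 9.78 and 9.83 in TAM, in the same order of labels. It was again higher in TAM in 5 of 5 labels. Its mean rose from 9.27 ± 0.23 to 9.82 ± 0.28 (SD, n = 5) in the paired fit over every probe set, a difference of 0.55. That fit gave a limma adjusted p of 0.0289. It called 1.77% of all probe sets and 1 of the 20 of this set, namely 1417986_at, while 1417985_at had a limma adjusted p of 0.0603 there. Without pairing, none of the 20 probe sets was called, against 0.0944% of all.

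Hes1 encodes a basic helix-loop-helix repressor and is among the best known NOTCH targets in T-ALL. Its probe set 1418102_at read 8.15, 8.34, 8.42, 8.37 and 8.38 in the OIL arrays 204, 206, F3, F3.1 and F3.2. In TAM it read 8.61, 8.65, 8.70, 8.77 and 8.41. All TAM arrays but F3.2 lay above all OIL arrays, and TAM F3.2 lay within the OIL range. OIL arrays averaged 8.33 ± 0.10 and TAM arrays 8.63 ± 0.14 (SD, n = 5). The difference was 0.30 (SE 0.08, 95% interval 0.11 to 0.48), or 1.23-fold. The limma adjusted p was 0.168, and 0.0785 with the labels paired as a fixed term. It was 0.0311 with the label as a random term, and 0.0364 in the fixed pairing without label F3.2, where the difference was 0.36. In the fixed pairing it was 0.181 without 204, 0.16 without 206, 0.189 without F3 and 0.234 without F3.1.

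Rbpj encodes the factor through which all NOTCH receptors reach DNA. Its brightest probe set, 1454896_at, read 8.77, 8.55, 8.76, 8.67 and 8.77 in OIL and 8.57, 8.48, 8.42, 8.38 and 8.61 in TAM, in the order 204, 206, F3, F3.1 and F3.2. It was lower in TAM in every label, though OIL 206 lay below TAM 204 and TAM F3.2. OIL arrays averaged 8.70 ± 0.10 and TAM arrays 8.49 ± 0.10 (SD, n = 5). The difference was -0.21 (SE 0.07, 95% interval -0.37 to -0.05), with a limma adjusted p of 0.247, and 0.113 with the labels paired. The probe sets 1448957_at and 1418114_at differed by -0.09 and -0.07, each lower in TAM in 4 of 5 labels.

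Among the receptors, Notch1 was the closest to a difference. Its probe set 1418634_at read 12.44, 12.36, 12.82, 12.37 and 12.27 in the OIL arrays 204, 206, F3, F3.1 and F3.2, and 12.62, 12.64, 12.88, 12.40 and 12.86 in TAM. TAM was higher in every label, but by 0.03 in F3.1 and 0.06 in F3 and by 0.59 in F3.2. The difference was 0.23 (95% interval -0.04 to 0.50), with a limma adjusted p of 0.477, and 0.194 with the labels paired. The probe set 1418633_at differed by 0.21 and was higher in TAM in 4 of 5 labels. Whether these probe sets read the ICN1 transcript, the endogenous gene or both was not determined.

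Notch2 read 6.95 to 7.51 in OIL and 6.75 to 7.63 in TAM by 1455556_at, a difference of 0.07 (limma adjusted p = 0.899). Its dimmer probe set, 1451889_at, had the opposite sign, at -0.12. Notch3, itself both a receptor and a NOTCH target in thymocytes, read 9.82 to 10.09 in OIL by 1421965_s_at. In TAM it read 9.90, 9.95, 9.84, 9.88 and 10.84 in the arrays 204, 206, F3, F3.1 and F3.2. The TAM F3.2 array alone stood above all OIL arrays, and the Notch3 probe set 1421964_at did the same there, at 8.42 against 7.39 to 7.58 in the other TAM arrays. The Notch3 difference of 0.12 (limma adjusted p = 0.839) was -0.07 without TAM F3.2.

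The remaining targets gave wide or near-zero differences. Hes5, a HES repressor, differed by 0.30 with a 95% interval of -1.24 to 1.85 (limma adjusted p = 0.9). The Hes5 difference was -0.07 without TAM F3.2 and -0.11 without TAM F3. Heyl, a HEY-family repressor, differed by -0.01 (-0.41 to 0.40), while its probe sets 1419303_at and 1438886_at differed by 0.18 and 0.19. Dtx1, which encodes an E3 ubiquitin ligase that binds NOTCH, differed by 0.01 (-0.35 to 0.38). Ptcra differed by 0.17 (-0.23 to 0.57) and was higher in TAM in 3 of 5 labels. Leaving out 1 array moved it between 0.09 (without OIL F3.2) and 0.32 (without TAM F3.1). These intervals leave room for changes in either direction. Over the set, 15 of 20 probe sets had a higher mean in TAM.

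**Figure D2:**
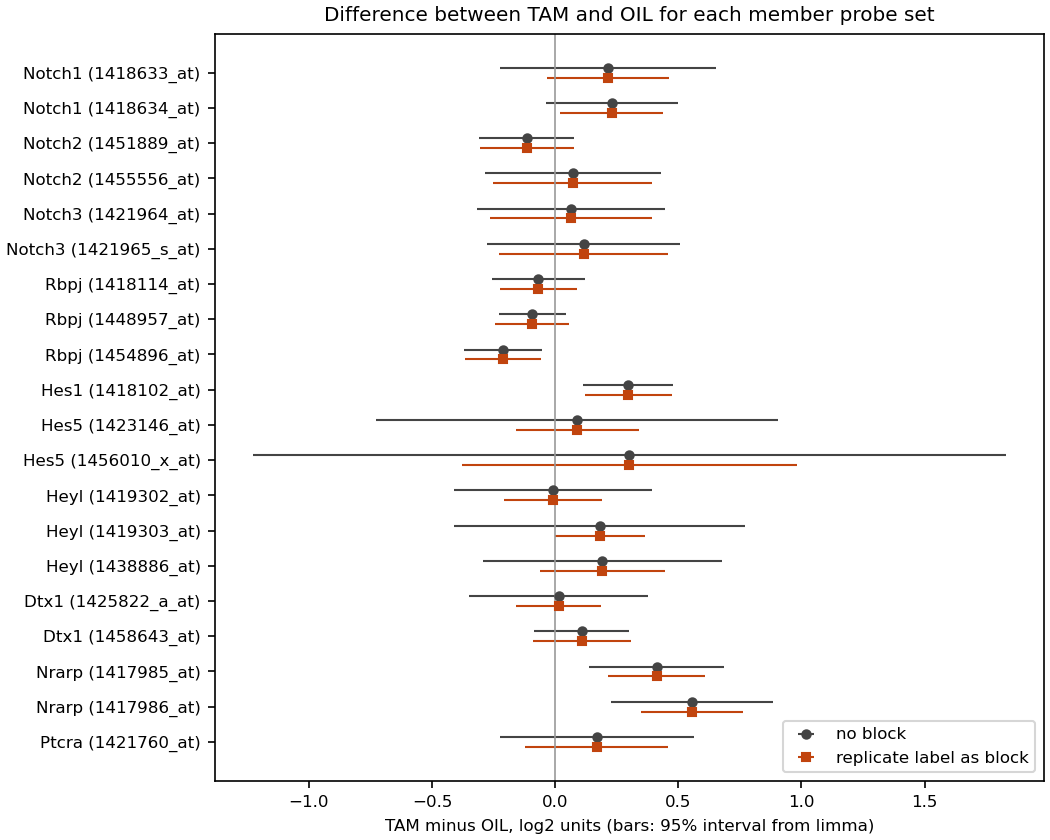
Difference of TAM minus OIL in log2 units (horizontal axis) for each of the 20 probe sets, with 95% intervals from limma, without a block (circles) and with the label as a block (squares). Both Nrarp probe sets lie above 0 in both fits, at 0.41 and 0.55, and the interval of Hes5 1456010_x_at is the widest.

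In some targets the labels differed more among themselves than the OIL and TAM arrays of a label did. For Hes5 the SD between the 5 label means was 1.17, against 0.62 within the OIL and TAM pair of a label. The same SDs were 0.30 and 0.13 for Heyl and 0.28 and 0.10 for Dtx1. The order was turned for Nrarp (0.18 between, 0.32 within), Hes1 (0.09 and 0.23), Rbpj (0.08 and 0.17) and Notch1 (0.17 and 0.22). It was also turned for Notch2 (0.19 and 0.26) and Notch3 (0.22 and 0.29), and Ptcra was nearly equal (0.258 and 0.255). The SD within pairs includes the mean TAM minus OIL difference. It is also an SD of single arrays, while each label mean averages 2 arrays, which lowers the SD between labels. A turned order therefore does not show that labels differed less than the arrays of a label. The share of all genes with either order was not counted. The labels 204 and 206 were set against F3, F3.1 and F3.2, a division chosen because earlier results of these data had shown it. Names that share F3 may mark related leukemias, so these 3 labels may not be independent.

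Hes5 by 1456010_x_at read 6.03, 5.94, 8.23, 6.83 and 6.80 in the OIL arrays 204, 206, F3, F3.1 and F3.2, and 5.32, 5.94, 8.72, 6.81 and 8.55 in TAM. The 4 arrays of 204 and 206 lay between 5.32 and 6.03 and the 6 arrays of the F3 labels between 6.80 and 8.72, with no overlap. The difference of 204 and 206 from the F3 labels was -1.85 (95% interval -2.97 to -0.73). The second Hes5 probe set, 1423146_at, was also separate, at 5.59 to 5.79 against 6.08 to 7.37.

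Heyl by 1419302_at read 9.54, 9.34, 10.20, 10.08 and 10.03 in OIL and 9.62, 9.57, 10.11, 9.76 and 10.09 in TAM, in the same order. The arrays of 204 and 206 all lay below those of the F3 labels, by 0.53 between the means (95% interval of the difference -0.79 to -0.27). The other Heyl probe sets overlapped between the label families, with differences of -0.54 by 1438886_at and -0.05 by 1419303_at.

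Dtx1 by 1425822_a_at read 12.19, 12.27, 12.77, 12.66 and 12.59 in OIL and 12.14, 12.26, 12.77, 12.52 and 12.87 in TAM. The arrays of 204 and 206, at 12.14 to 12.27, again lay below those of the F3 labels, at 12.52 to 12.87. The difference was -0.48 (95% interval -0.72 to -0.25). The dim Dtx1 probe set 1458643_at differed by 0.03 in the other direction.

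None of these passed the threshold over all genes, with 2 labels against 3. The limma adjusted p was 0.105 for Hes5, 0.067 for Heyl and 0.0653 for Dtx1, and 0 of 10 genes of the set were called where 2.6% of all genes were. Groups of arrays without overlap were seen for these 3 of 10 genes and for 11.5% of all genes. The 3 receptors, Rbpj, Hes1, Nrarp and Ptcra overlapped, with differences from -0.23 (Nrarp) to 0.16 (Ptcra).

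**Figure D3:**
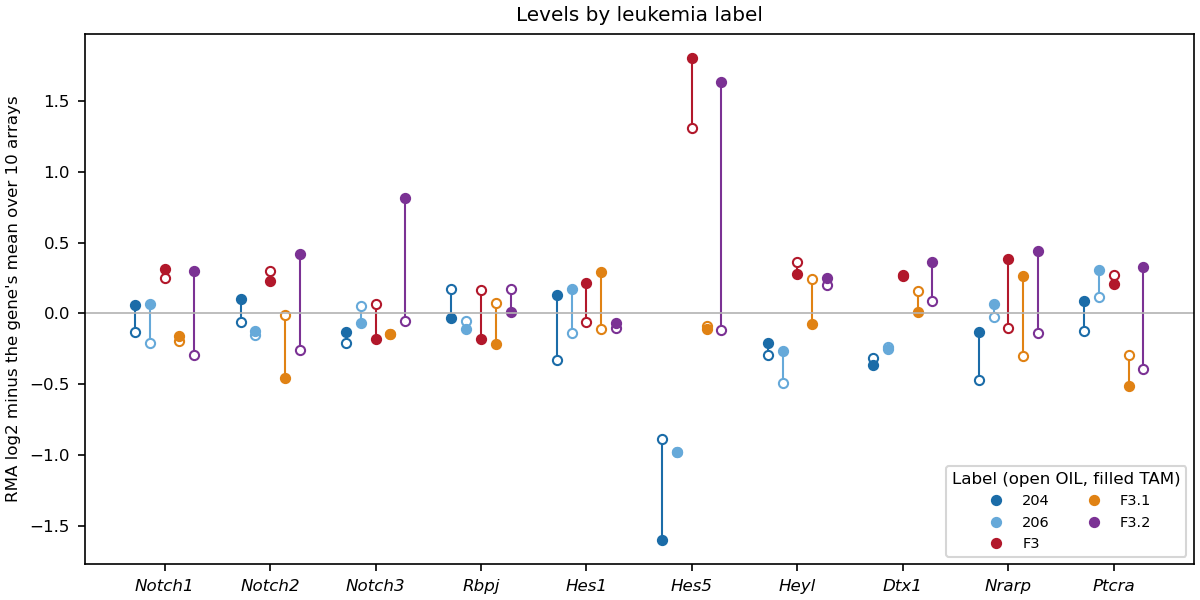
RMA log2 level minus the gene's mean over 10 arrays (vertical axis) for each of the 10 genes, coloured by label, with open circles for OIL and filled circles for TAM joined by a line. Hes5, Heyl and Dtx1 are lower in all 4 arrays of 204 and 206 than in the 6 arrays of F3, F3.1 and F3.2.

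Whether the TAM effect itself differed between the label families was tested on the 5 TAM minus OIL differences. No gene of the set and 0% of all genes were called by limma. At an unadjusted p under 0.05, 702 genes (5.51%) differed, Nrarp among them. Its TAM effect in 204 and 206 minus that in the F3 labels was -0.33 (limma adjusted p = 0.872).

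Within the F3 labels several genes of the set, each read by its brightest probe set, ran together across arrays. Notch1, Notch2, Hes5, Heyl, Dtx1 and Ptcra were each higher in OIL F3, TAM F3 and TAM F3.2 than in OIL F3.1, OIL F3.2 and TAM F3.1. Ptcra, for example, read 11.54, 11.47 and 11.60 in the first 3 arrays and 10.97, 10.88 and 10.76 in the others. Heyl was split only narrowly, with 10.09 in TAM F3.2 and 10.08 in OIL F3.1. The split was read from these same arrays, and the share of all genes that split this way was not counted. It crosses the treatment groups: OIL F3.1, OIL F3.2 and TAM F3.1 form the low side. The first and second of these were also the most alike of all array pairs (r = 0.9969 over genes).

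After removing the mean of each treatment group within each label family, Notch1 and Hes5 correlated at r = 0.96 (Spearman 0.98) over 10 arrays, and at 0.90 without the 2 arrays farthest from the median. The same values were 0.96, 0.93 and 0.88 for Hes5 with Ptcra, and 0.96, 0.90 and 0.95 for Dtx1 with Ptcra. For Nrarp with Notch1 they were only 0.27, 0.20 and 0.03. Rbpj and Hes1 ran in opposite directions (r = -0.88, Spearman -0.85, and -0.70 without the 2 farthest arrays). These correlations describe arrays that share labels and normalization. Each treatment group holds 2 arrays of 204 and 206, so their deviations mirror each other, and fewer than 10 values are independent. Other genes moved with the same arrays: the T cell gene Cd8a correlated with Ptcra at 0.90, with Dtx1 at 0.87, with Nrarp at 0.81, with Hes5 at 0.76 and with Notch1 at 0.70. Its r was 0.69 with Notch2, 0.55 with Notch3, 0.44 with Heyl, -0.04 with Rbpj and -0.10 with Hes1. Cd8a was 1 of 11 T cell markers, which did not all run alike over the F3 labels. Cd8b1 read 10.92, 11.02 and 10.78 in OIL F3, TAM F3 and TAM F3.2. It read 10.21, 10.12 and 9.67 in OIL F3.1, OIL F3.2 and TAM F3.1. Cd3d ran the other way in the same order, at 12.67, 12.59 and 12.53 and then 12.75, 12.76 and 12.79. The neutrophil gene S100a8 correlated with Ptcra at 0.76, with Notch1 at 0.72 and with Nrarp at 0.45. S100a8 read 5.06, 6.94, 9.11, 8.27 and 6.69 in OIL and 7.39, 6.55, 10.07, 7.63 and 9.11 in TAM. The part of sample composition in these patterns was not tested.

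**Figure D4:**
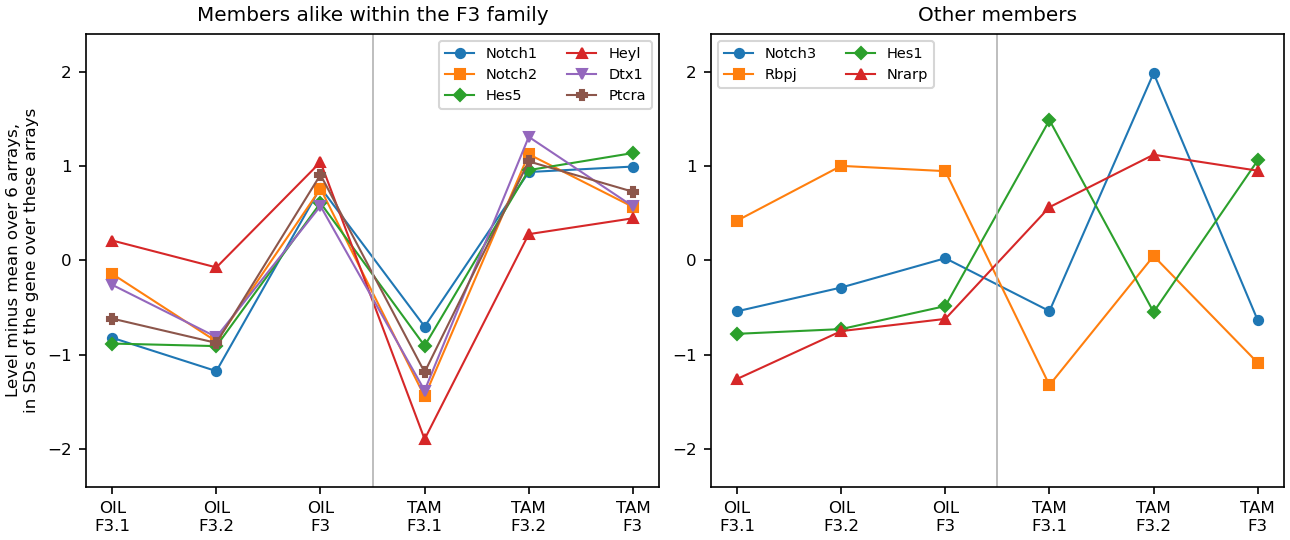
Level in each of the 6 arrays labelled F3, F3.1 and F3.2, minus the gene's mean and in SDs over these arrays (vertical axis), for Notch1, Notch2, Hes5, Heyl, Dtx1 and Ptcra (left) and for Notch3, Rbpj, Hes1 and Nrarp (right). By their brightest probe sets, the genes on the left are lower in OIL F3.1, OIL F3.2 and TAM F3.1 than in OIL F3, TAM F3.2 and TAM F3.

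By the same measure over 10 arrays, the genes most like Notch1 were Cbl, a ubiquitin ligase gene (r = 0.989), Lpcat3 (0.987) and Mctp2 (0.987). Those most like Dtx1 were 2210016F16Rik (0.984), Rcan1, which encodes a regulator of calcineurin (0.981), and Ccar2 (0.978). Those most like Hes1 were Zfp280b (0.984), Cd3eap (0.983) and Rbmxl1 (0.982), and those most like Nrarp were Tango2 (0.989), B230307C23Rik (0.973) and Prr3 (0.972). With 12735 genes searched over 10 arrays, values of this size describe these arrays only.

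The rest of the NOTCH pathway was read from 6 lists with 81 genes, of which 68 were tested. The lists were drawn up with earlier results of these data known, so their shares of called genes are description only. Without pairing, 2 of 68 were called, Aak1 and Relb, both higher in TAM, against 0.471% of all genes. With the labels paired, 6 were called, 4 higher and 2 lower, against 3.38% of all genes. The lists had 44.1% of genes higher in TAM, against 41% of all genes, and a median difference of -0.03, which is also the median of all genes. The same way in 5 of 5 labels went 18 of 68, against 21.9% of all genes. The ligand genes Dll1, Dll4, Jag1 and Jag2 gave no call, with a median of -0.06, and the other ligands listed and Notch4 were too dim to be tested.

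Of the genes for receptor glycosylation and cleavage, 11 of 13 had a lower mean in TAM, with a median of -0.12, and none was called without pairing. Psen2, the gene of a gamma-secretase subunit, was called lower with the labels paired: OIL arrays averaged 6.87 ± 0.22 and TAM arrays 6.32 ± 0.15 (SD, n = 5), and the difference was -0.56 (limma adjusted p = 0.043, and 0.0745 unpaired). Its other probe set differed by -0.07, and the paired call was lost with the mean of the probe sets (limma adjusted p = 0.07). Coactivators (6 tested) and corepressors (10 tested) gave no call in either fit, with medians of 0.02 and 0.07.

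Among 14 turnover and endocytosis genes, Aak1, which encodes a kinase of the clathrin adaptor that has also been tied to NUMB and NOTCH trafficking, was called in both fits. By 1434935_at it read 11.23, 11.20, 11.00, 11.08 and 11.10 in the OIL arrays 204, 206, F3, F3.1 and F3.2 and 11.66, 11.96, 11.58, 12.20 and 11.85 in TAM. The groups did not overlap, and the difference was 0.73 (limma adjusted p = 0.0312, and 0.0158 with the labels paired). Of its other 6 probe sets, 4 differed by 0.52 to 0.87 and the 2 others by 0.0022 and -0.04. The unpaired call was lost without any 1 of 7 arrays (OIL 204, OIL 206, OIL F3, OIL F3.1, OIL F3.2, TAM 206 or TAM F3.2), with adjusted p of 0.0504 to 0.105, and with the mean of its probe sets (0.0868).

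Among 21 other reported targets, 13 had a higher mean in TAM and the median was 0.10. Relb, which encodes an NF-kappaB subunit, was called in both fits. It read 5.28, 5.05, 5.11, 4.96 and 4.87 in OIL and 5.79, 5.70, 5.75, 5.97 and 5.57 in TAM, in the order 204, 206, F3, F3.1 and F3.2. Relb was read by 1 probe set only, 1417856_at. Its OIL values were low, near the array medians of 5.07 to 5.13 and not far above the dim limit of 4.59. The groups did not overlap, and the difference was 0.71 (limma adjusted p = 0.0159, and 0.00872 with the labels paired). Its unpaired call was lost when either OIL F3.1 (adjusted p = 0.0692) or OIL F3.2 (0.0506) was removed, and when both were averaged (0.0586).

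With the labels paired, the cell cycle genes Cdkn1a, Ccnd3 and Cdk6 were called as well. Cdkn1a, which encodes the cyclin-dependent kinase inhibitor p21, rose from 6.64 ± 0.59 to 8.42 ± 0.61 (SD, n = 5), a difference of 1.78 (limma adjusted p = 0.00356 paired, 0.0511 unpaired). Ccnd3, the gene of cyclin D3, rose from 9.23 ± 0.55 to 10.31 ± 0.22, by 1.08 (0.0131 paired, 0.0855 unpaired), but its other probe sets differed by -0.30 and 0.44 and the paired call was lost with their mean (0.168). Cdk6, the gene of a cyclin D-dependent kinase, fell from 11.65 ± 0.27 to 11.13 ± 0.24, by 0.52 (0.00872 paired, 0.173 unpaired), and all 3 of its probe sets were lower. Myc, a central NOTCH1 target in T-ALL, differed by -0.06 (limma adjusted p = 0.935) and was named by choice after its values were seen.

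Between the label families, 3 of the 68 pathway genes were called, against 2.6% of all genes, and they are named here after their values were seen. Ccnd1, the gene of cyclin D1, and Mib1, the gene of a ubiquitin ligase that acts on NOTCH ligands, were higher in 204 and 206, by 1.37 (limma adjusted p = 0.0428) and 0.53 (0.0365). Tle4, the gene of a Groucho-type corepressor, was lower there, with a difference of -0.71 (0.0348).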

How the data were processed

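RNA of sorted leukemic cells was measured on 10 one-colour expression arrays, 5 OIL and 5 TAM. Per the submitters' processing notes, RMA was run before deposit, and the deposited numbers are on a log2 scale. Its version was not given in the sources consulted. The method subtracts background, quantile-normalizes arrays and summarises each probe set, so shifts common to all genes are removed. Arrays carry no read depth, and their number limits the precision. Gene symbols came from the platform annotation: 34945 had 1 symbol, 932 several, 9160 none listed, and 64 were controls. Entrez IDs of 34741 matched RefSeq GRCm38.p6, used for names.

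For each gene the probe set that was brightest on average over 10 arrays was taken, and the lowest 30% of genes (below 4.59) were left out. TAM was compared with OIL with limma 3.58.1 (lmFit, eBayes) in R 4.3.3, with Benjamini-Hochberg adjustment over all 12735 genes and a threshold of 0.05. There was no block and there were 8 residual degrees of freedom. Every probe set with 1 symbol was also fitted, unfiltered. Label families were compared on label means, and the TAM effect between families on label differences (3 residual degrees of freedom each). Single values were tested with two-sided exact permutation tests. The fits were tested on simulated data.

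The fit with the label as a block left 4 residual degrees of freedom. The pairing comes from the labels and from a check that set a limit of 0.1 for correlated deviations from the group means, found as 0.76 (204), 0.75 (206), 0.80 (F3), 0.58 (F3.1) and 0.18 (F3.2). For 3 arrays, all under F3.1 or F3.2, the closest array of the other group had a different label, so the pairing is least supported there.

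The genes, lists and tests were chosen with earlier results of these data known. The text names all 10 genes, the pathway genes called in either fit, and the 3 genes most correlated with Notch1, Hes1, Dtx1 and Nrarp. Alternatives were the label as fixed or random block, other filters, centring and probe set choices, averaging OIL F3.1 with OIL F3.2, and leaving out each array.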

Additional observations from a re-analysis of the deposited data

Results flagged for a closer look

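In 3 of the 40 groups of 5 values tested (each probe set in OIL and in TAM), 1 array stood far from the other 4, beyond a gap of 0.71 of the group's range. Chance does so in about 1 in 20 groups, and the probe sets of a gene are not independent. Notch3 was high in TAM F3.2 by both probe sets: 10.84 by 1421965_s_at, where the other TAM arrays read 9.84 to 9.95, and 8.42 by 1421964_at, where they read 7.39 to 7.58. Ptcra was low in TAM F3.1, at 10.76, where the other TAM arrays read 11.36 to 11.60. No cause was tested.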

How the results depend on the processing

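The label as a replicate block moved the calls most. Pairing by label as a fixed term called 431 genes in all, 6 pathway genes, 1 gene of the set (Nrarp, 0.41) and 1 of its 20 probe sets (Nrarp 1417986_at, 0.55). As a random term it called 728, 6 and 2 (Nrarp, 0.41, and Hes1, 0.30). The mean of all probe sets gave 26 genes and 1 pathway gene, the probe set with the largest interquartile range 33 and 1, and averaging OIL F3.1 with OIL F3.2 10 and 0. Leaving out 1 array at a time gave 8 to 54 genes, 0 to 2 pathway genes and 0 genes of the set. Chosen after seeing the data, the replicate block without each label in turn called 146 (without 204), 184 (206), 153 (F3), 87 (F3.1) and 436 (F3.2) genes, 4 to 7 pathway genes and 0 to 1 of the set (Nrarp at 0.49 without 206, Hes1 at 0.36 without F3.2). The replicate block with the mean of all probe sets called 400, 6 and 1 (Nrarp, 0.48). Nrarp, Hes1, Notch1 and Ptcra kept a higher mean in TAM, and Rbpj a lower one, under every alternative run. Ptcra ranged from 0.09 to 0.32 leaving out 1 array and was 0.03 with the replicate block without F3.2. Differences near 0 changed sign, most often without TAM F3.2. Heyl was 0.01 after median centring, 0.12 with the mean of probe sets with or without the replicate block, 0.19 with the largest interquartile range, 0.05 with OIL F3.1 and F3.2 averaged, -0.13 to 0.08 leaving out 1 array, and up to 0.07 with the replicate block less 1 label (0.01 without F3, 0.07 without F3.1). Notch2 was -0.02 with the mean of probe sets with or without the replicate block, and -0.03 to 0.19 leaving out 1 array. Leaving out 1 array gave -0.07 to 0.18 for Notch3, -0.11 to 0.74 for Hes5, -0.08 to 0.11 for Dtx1, -0.17 to 0.30 for Hes5 1423146_at and -0.12 to 0.14 for Notch3 1421964_at. With the replicate block and without label F3.2, Notch2 was -0.08, Notch3 -0.07, Hes5 -0.06 and Dtx1 -0.05. The cause was not tested. With 5 arrays a group, the 95% interval of Hes5 alone spans -1.24 to 1.85.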
